A study of Homo sapiens with 16 samples.

Results

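The 6 subunits of prefoldin, encoded by PFDN1, PFDN2, PFDN4, PFDN5, PFDN6 and VBP1, were followed in transcripts and in ribosome footprints of human lung fibroblasts before and after heat shock. The genes are listed by symbol as the subunits of the complex, and all 6 were present among the 23597 genes of the RNA-seq table and among the 19201 genes of the Ribo-seq table. RNA-seq counts reads from transcripts, and Ribo-seq counts the short RNA fragments that ribosomes shield from nuclease, so that footprint counts follow how many ribosomes sit on a coding sequence. WI-38, an established fibroblast line with a limited lifespan in culture, was used young (passage 24) and senescent (passage 36), so both states are passages of 1 line. Cells of each passage were left unstressed or heated to 44 °C for 2 h (a label value with a lost degree sign), which gave young control, young heat shock, senescent control and senescent heat shock groups in both assays. All groups had been starved of serum and returned to complete medium before the experiment, and no transgene, mutation or drug is named in the labels. Each of the 8 groups had 2 libraries, 16 in all, and the title of the series places the study in the question of how protein homeostasis changes in mammalian senescence.

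Prefoldin is a jellyfish-shaped cytosolic complex that captures unfolded polypeptides as they leave the ribosome and hands them to the chaperonin TRiC, a closed-chamber folding machine also called CCT. Actins and tubulins are its best known substrates, so prefoldin and TRiC supply the cytoskeleton of a fibroblast. The complex is built of a core pair of alpha-type subunits, VBP1 (also called PFDN3) and PFDN5, and of the beta-type subunits PFDN1, PFDN2, PFDN4 and PFDN6.

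Library totals were 26434514 to 37126871 counts in RNA-seq and 4581141 to 9104077 in Ribo-seq, with 192 to 10695 counts per prefoldin gene and library in RNA and 134 to 3291 in footprints. HSPA1A, the stress-inducible HSP70 gene and a check of the treatment labels, was at 64.3 to 88.8 CPM (counts scaled to library size by TMM) in control RNA and at 10400 to 22600 after heat shock; in footprints it was at 48.1 to 156 and 10100 to 14400. All 10 fibroblast markers reached 1 TPM (the authors' level per unit of transcript length) in at least 1 library of each assay. In every RNA library all 4 endothelial markers, epithelial markers EPCAM and CDH1 and leukocyte markers PTPRC, CD14 and LYZ were below 1 TPM. In footprints PTPRC reached 1.18 TPM in 1 young control library, from 2 counts. CD68, a lysosomal protein abundant in macrophages and the other leukocyte marker listed, was at 103 to 178 TPM in RNA and at 70.3 to 169 TPM in footprints; libraries of different groups overlapped, and its part in the results was not tested. The 5 epithelial genes, through the keratins, summed to 133 to 147 TPM in young and 188 to 224 TPM in senescent RNA, and the part of such cells in the comparisons of state was not tested. The young control footprint libraries were closer to each other than those of other footprint groups. The chi-square per degree of freedom over genes was 1.73, against 17.2 to 38.7 in those groups. It was 67.5 to 105 in RNA, where libraries held more counts, and the measure rises with counts, so the assays are not compared. The young control footprint pair differed by more than sampling noise and was kept as 2 samples. Footprint results were also computed with the pair counted as 1. The labels number the replicates without saying whether they were separate cultures, so p-values measure only the spread between these libraries. In bulk libraries, a change in the makeup of the cells cannot be told apart from a change in RNA per cell.

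The 6 genes differed widely in level. In TPM, PFDN5 led the RNA at 900 to 1041 TPM over the 8 libraries, with a median of 968. PFDN2 followed at 176 to 222 TPM, PFDN1 at 84.2 to 154, PFDN6 at 92.7 to 154, VBP1 at 40.7 to 90.0 and PFDN4 at 9.61 to 25.4. The ranges of PFDN1 and PFDN6 overlapped, and PFDN1 was the higher of the pair in 3 of 8 libraries; the gaps from PFDN5 to PFDN2, from PFDN2 to PFDN1, from PFDN6 to VBP1 and from VBP1 to PFDN4 held in 8 of 8. The highest subunit exceeded the lowest by 35.4- to 103-fold in RNA (median 54.4).

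Footprint levels of the subunits lay much closer together. PFDN5 again led, at 642 to 857 TPM, and was 2.08- to 3.69-fold above PFDN2 within each library. PFDN2 spanned 201 to 309 TPM, PFDN1 172 to 216, PFDN6 110 to 195, VBP1 106 to 153 and PFDN4 78.8 to 131, and each of these ranges overlapped the next. Within libraries PFDN2 was above PFDN1 and PFDN1 above PFDN6 in 8 of 8, while PFDN6 was above VBP1 in 4 of 8. The ratio of highest to lowest subunit was 5.32 to 9.18 (median 6.94). The difference between assays was carried mainly by the ends of the order: footprint TPM divided by RNA TPM was 5.68 to 7.26 for PFDN4 over the 4 conditions and 0.661 to 0.884 for PFDN5. The transcript lengths behind the TPM values differed between the tables, however. Relative to PFDN5, the length implied by count and TPM was 2.07 for PFDN4 in RNA and 0.916 in footprints (medians), 2.04 and 0.811 for PFDN1, and 2.56 and 1.57 for VBP1, so the ratio between assays for these genes carries that difference too. Together the 6 genes held 0.139% to 0.157% of all RNA TPM and 0.139% to 0.169% of all footprint TPM.

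**Figure D1:**
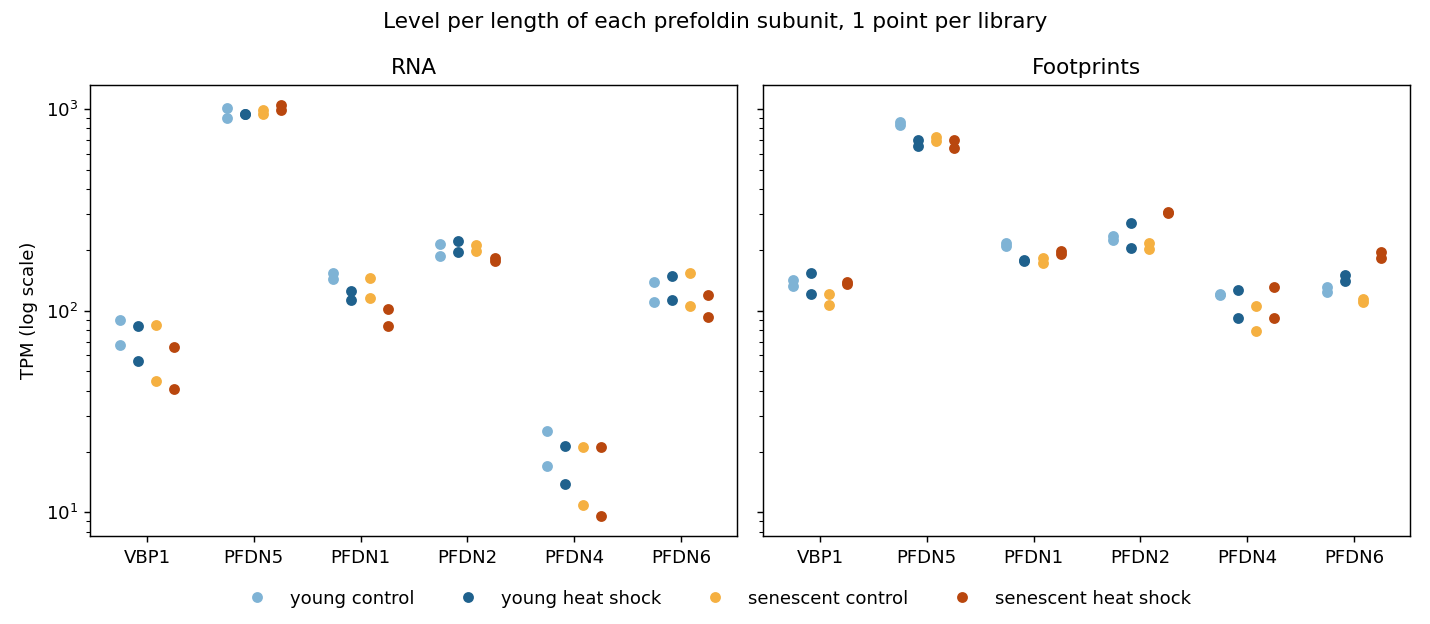
TPM of each prefoldin subunit (log axis) in RNA-seq (left) and Ribo-seq (right), with 1 point per library coloured by condition. In RNA the subunits spread from 9.61 TPM (PFDN4) to 1041 TPM (PFDN5), whereas in footprints they lie between 78.8 and 857 TPM.

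In the main edgeR fit, with all libraries and no replicate block, subunits passed the test only in footprints of heat-shocked senescent cells. PFDN6, a beta-type subunit, rose 2.10-fold and PFDN2, also beta-type, rose 1.83-fold, while their transcripts differed by no more than 1.06-fold. PFDN6 footprints were at 37.3 and 38.3 CPM in the senescent control libraries (179 and 227 counts) and at 71.4 and 87.3 CPM in the heat-shocked ones (527 and 411 counts). The lower heat-shocked library was thus well above both controls. The log2 change was 1.07 ± 0.20 (SE, n = 2 against 2; adjusted p = 0.0187 in edgeR's quasi-likelihood test with Benjamini-Hochberg adjustment over all genes). PFDN2 footprints went from 91.0 and 84.3 CPM to 148 and 173 CPM, again with no overlap. The log2 change was 0.87 ± 0.22 (SE; edgeR adjusted p = 0.0435).

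These 2 calls among 6 genes compare with 3.12% of all 11288 genes called higher in footprints of heat-shocked senescent cells, and 5.24% called lower. All 6 subunits were higher in both heat-shocked libraries than in both controls, which 26.8% of all genes tested were. Their median log2 change was 0.58, against 0.03 over all genes. VBP1, the alpha-type subunit that also binds the von Hippel-Lindau protein, went from 77.7 and 63.2 CPM to 101 and 111 CPM, a log2 difference of 0.59 ± 0.20 (edgeR adjusted p = 0.0951). PFDN4 went from 27.9 and 37.2 CPM to 53.8 and 43.1 CPM and PFDN1 from 57.5 and 53.5 CPM to 69.0 and 82.6 CPM. Neither passed the test (log2 0.57 ± 0.25 and 0.45 ± 0.19; edgeR adjusted p = 0.176 and 0.167). PFDN5, the alpha-type subunit known as the MYC-binding protein MM-1, differed least, from 263 and 280 CPM to 287 and 327 CPM. Its log2 difference was 0.18 ± 0.18 (edgeR adjusted p = 0.557).

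**Figure D2:**
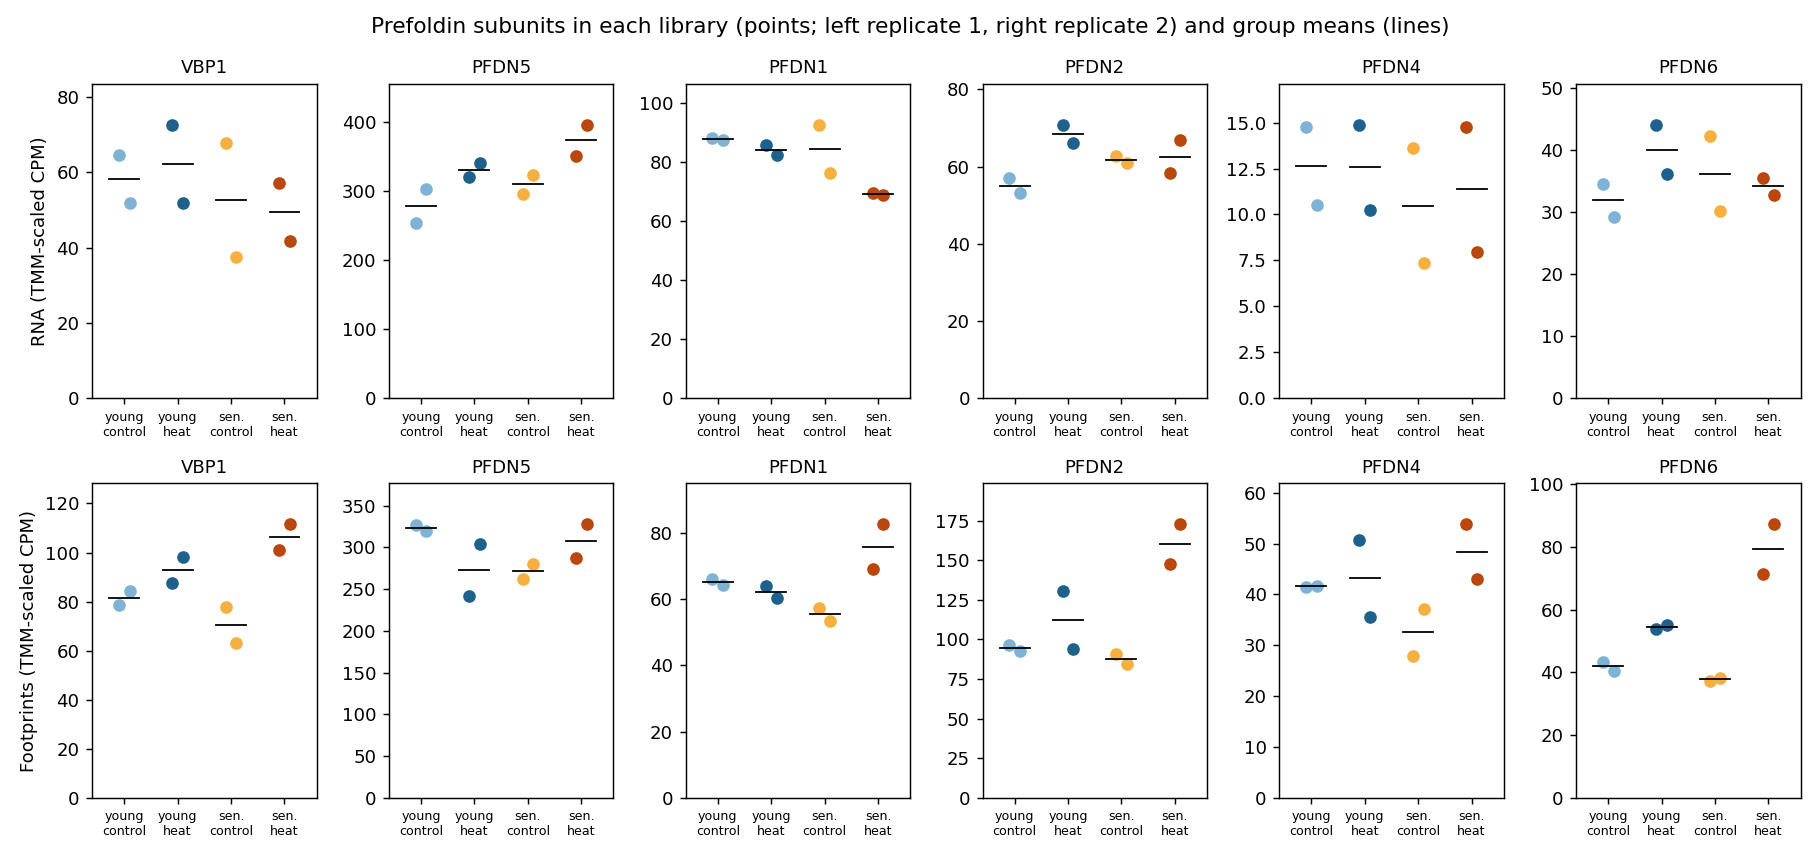
CPM after TMM scaling (linear axes from 0, a separate scale per gene) of each subunit in RNA-seq (top row) and Ribo-seq (bottom row); points are libraries, replicate 1 at left, and lines are group means. In the bottom row the senescent heat shock libraries lie above the senescent controls for all 6 genes, with PFDN6 at 71.4 and 87.3 against 37.3 and 38.3 CPM.

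The directions of PFDN6 and PFDN2 held in every fit tried, whereas their calls rested on the pooled spread of a few libraries. DESeq2 called both (adjusted p = 0.000876 for PFDN6 and 0.00909 for PFDN2), where 5.88% of genes were called higher. So did edgeR with the replicate block (adjusted p = 0.0103 and 0.0239), where 5.98% were called higher. Both calls also held with relative log expression scaling (edgeR adjusted p = 0.0186 and 0.0456) and with no filter (edgeR adjusted p = 0.00789 and 0.0272). With each of the 8 footprint libraries left out in turn, each gene was called in 3 of 8 fits. The calls of both were lost without either young control library, without either senescent control library and without senescent heat shock replicate 2. The edgeR adjusted p then ranged from 0.0626 to 0.0785 for PFDN6 and from 0.12 to 0.147 for PFDN2. Over all 8 fits the log2 change was 0.88 to 1.17 for PFDN6 and 0.72 to 0.94 for PFDN2. With the young control pair counted as 1 sample, no subunit was called (edgeR adjusted p = 0.0688 for PFDN6 and 0.12 for PFDN2). Scaling by library size alone moved the median of all genes to -0.25, and on that scale PFDN6 was called, PFDN2 was not (log2 0.59, edgeR adjusted p = 0.0848) and PFDN5 fell on the other side of 0, which left 5 of 6 subunits above it.

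In young cells no subunit was called in footprints after heat shock, by edgeR, by DESeq2 or with replicate number as a block. None had an unadjusted p under 0.05 in edgeR. Over all genes edgeR called 0.771% higher and 0.381% lower, DESeq2 2.2% and 1.94%, and the block 1.53% and 1.39%. PFDN6 was at 43.3 and 40.6 CPM in controls and at 53.9 and 55.2 CPM after heat shock. The heat-shocked libraries were again both higher, with a log2 difference of 0.38 ± 0.20 (edgeR adjusted p = 0.385). PFDN2 was at 96.6 and 92.5 CPM in controls and at 131 and 93.7 CPM after heat shock, so that 1 heat-shocked library lay among the controls. PFDN5 was lower after heat shock, from 327 and 320 CPM to 242 and 304 CPM (log2 -0.24 ± 0.18; edgeR adjusted p = 0.567). VBP1 was higher without overlap and PFDN1 lower without overlap, at log2 differences of 0.19 and -0.07, and PFDN4 libraries overlapped. The 2 genes higher and 2 lower without overlap compare with 27.4% and 31.6% of all genes.

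The difference between the heat responses of senescent and young cells was above 0 for all 6 subunits in footprints, and no difference passed the test. It ran from 0.41 (VBP1) to 0.69 (PFDN6) on the log2 scale, with a median of 0.52 against -0.01 over all genes. PFDN6 was the 1 subunit with an unadjusted p under 0.05, and the edgeR adjusted p was 0.834 for each subunit. No gene of the 11288 was called by edgeR in this comparison (0% higher, 0% lower), and DESeq2 called 10 genes and no subunit. With the young control pair counted as 1 sample, no subunit was called in young cells or in the difference of responses, and the medians were 0.12 and 0.52. An effect called in senescent and not in young cells is therefore not shown to differ between them.

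**Figure D3:**
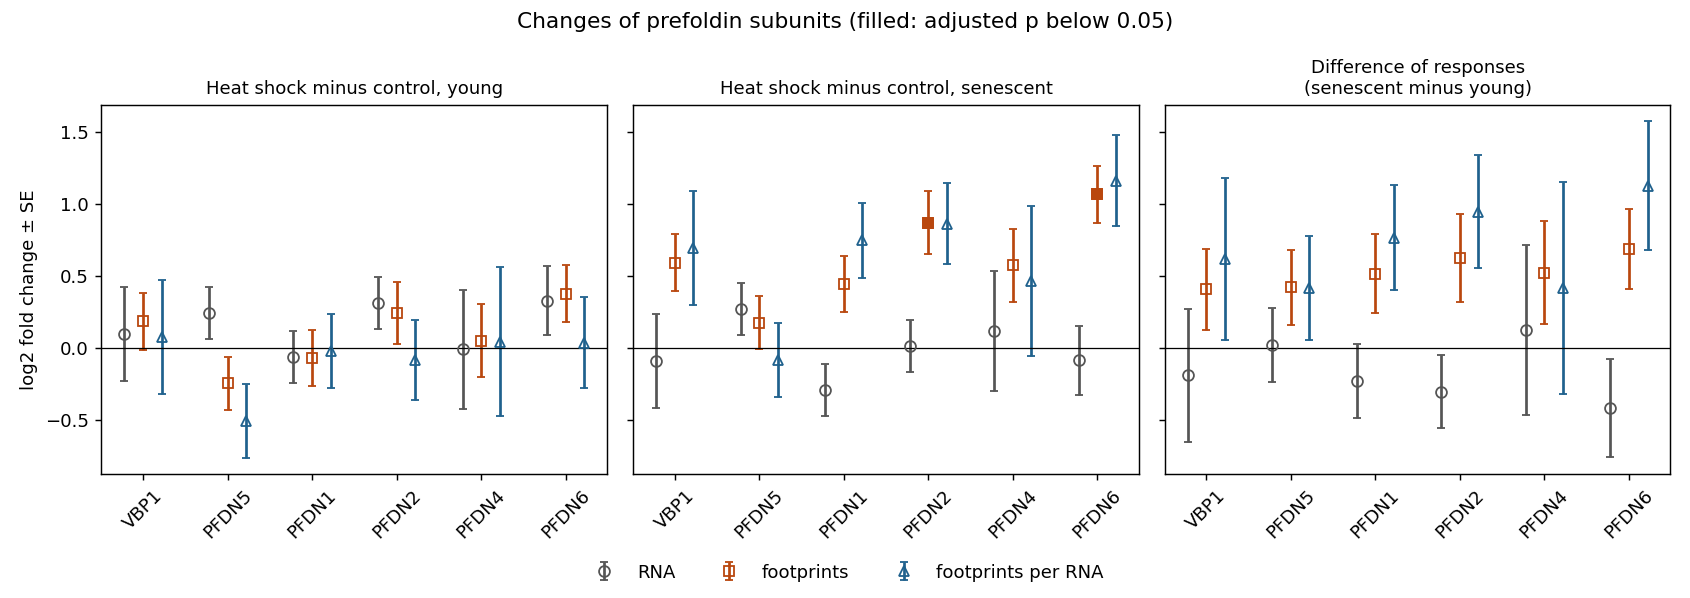
Log2 fold changes (points) with standard errors (bars) for RNA, footprints and footprints per RNA, for heat shock in young cells, heat shock in senescent cells and the difference of these responses; filled symbols have an edgeR adjusted p below 0.05. The filled symbols are PFDN2 (0.87) and PFDN6 (1.07) in footprints of senescent cells, and in the right panel footprints lie between 0.41 and 0.69 for all 6 subunits.

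Transcripts of the subunits gave no call. No subunit passed in RNA in any of the 5 comparisons by edgeR, by DESeq2 or with the replicate block. In edgeR without the block no unadjusted p was under 0.05. In young cells 0.668% of the 13177 genes tested in RNA were called higher and 0.471% lower on heat shock, and in senescent cells 0.364% and 0.212%. DESeq2 called 1.68% higher and 1.71% lower in young and 0.983% and 1.23% in senescent cells, and the block 3.64% and 5.13% and then 2.66% and 3.62%, none of these genes a subunit. For the difference of the RNA responses edgeR called 0% higher and 0% lower, DESeq2 0% and 0.0228%, and the block 0% and 0.00759%. PFDN6 RNA was at 34.6 and 29.3 CPM in young controls and at 44.1 and 36.1 CPM after heat shock, and at 42.3 and 30.1 CPM and then 35.6 and 32.7 CPM in senescent cells. The senescent groups overlapped and the young ones did not. PFDN2 RNA was at 56.9 and 53.1 CPM and then 70.9 and 66.2 CPM in young cells, and at 62.8 and 60.8 CPM and then 58.2 and 66.8 CPM in senescent cells. Its log2 difference was 0.32 ± 0.18 in young and 0.02 ± 0.18 in senescent cells.

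PFDN5 and PFDN1 were the subunits whose RNA lay on the same side of the controls in both states. PFDN5 RNA went from 253 and 303 CPM to 319 and 340 CPM in young cells and from 296 and 323 CPM to 351 and 395 CPM in senescent cells (log2 0.25 ± 0.18 and 0.27 ± 0.18; edgeR adjusted p = 0.825 and 0.80). PFDN1 RNA went from 88.3 and 87.4 CPM to 85.8 and 82.3 CPM in young cells and from 92.6 and 76.3 CPM to 69.6 and 68.7 CPM in senescent cells (log2 -0.06 ± 0.18 and -0.29 ± 0.18). Higher without overlap were 3 subunits in young cells (PFDN2, PFDN5 and PFDN6) and 1 in senescent cells, against 19.5% and 14.7% of all genes. PFDN1 was the 1 lower without overlap in both, against 20.7% and 16.4%. The median log2 difference of the 6 genes was 0.17 in young and -0.03 in senescent cells. With library size alone these medians were -0.11 and -0.26, beside -0.27 and -0.23 over all genes.

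RNA of PFDN4 and VBP1 varied mainly between replicates. Replicate 1 was above replicate 2 in 4 of 4 groups for PFDN4 (1.41- to 1.86-fold), VBP1 (1.25- to 1.81-fold), PFDN6 (1.09- to 1.40-fold) and PFDN1 (1.01- to 1.21-fold), and for PFDN5 it was below in 4 of 4 (ratio 0.837 to 0.939). No subunit showed such a split in all 4 groups of footprints. The standard errors of the RNA changes of PFDN4 and VBP1, 0.42 and 0.33, were accordingly the widest of the family.

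Footprints per RNA, the footprint change minus the RNA change in a fit of all 16 libraries, were compared next. In senescent cells heat shock gave a log2 difference of 1.16 ± 0.32 for PFDN6, 0.86 ± 0.28 for PFDN2 and 0.75 ± 0.26 for PFDN1. None passed in edgeR without a replicate block (adjusted p = 0.0888, 0.153 and 0.184), although all 3 had an unadjusted p under 0.05. In that fit 0.203% of 12831 genes were called higher and 1.63% lower. It leaves out the pairing of the RNA libraries by replicate number, which is described under processing. With replicate number as a block PFDN6 and PFDN2 were called (log2 1.14 and 0.87; adjusted p = 0.0113 and 0.0454), where 2.57% of genes were called higher. DESeq2 called PFDN6 and PFDN1 (log2 1.13 and 0.72; adjusted p = 0.0122 and 0.0455), where 1.28% were called higher. With a library left out, the PFDN6 difference ran from 0.89 (without senescent control RNA replicate 1) to 1.38 (without senescent control RNA replicate 2). VBP1 was at 0.69 ± 0.40, PFDN4 at 0.47 ± 0.52 and PFDN5 at -0.08 ± 0.26, so that PFDN5 was the 1 subunit with no higher ratio. The median of the 6 was 0.72, against 0.08 over all genes.

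In young cells PFDN5 had the difference farthest from 0 in footprints per RNA, at -0.50 ± 0.26 (unadjusted p = 0.0693, edgeR adjusted p of 1.00), and the other subunits lay between -0.08 and 0.08. No subunit had an unadjusted p under 0.05 there, and 0.0312% of genes were called higher and 0.039% lower. The difference of the responses was above 0 for all 6, from 0.42 (PFDN4 and PFDN5) to 1.12 (PFDN6), with unadjusted p under 0.05 for PFDN2 and PFDN6 and an edgeR adjusted p of 1 for each; 0.00779% of genes were called higher and 0% lower. That count rested on single libraries for PFDN4, whose difference ran from -0.11 (without senescent control RNA replicate 1) to 0.95 (without senescent heat shock RNA replicate 1) with a library left out. VBP1 ran from 0.12 to 0.98.

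Between senescent and young cells the footprint differences of the subunits had opposite signs in control and under heat shock, and none was called. In control cells all 6 subunits were lower in senescent than in young cells without overlap of the libraries, against 26.7% of all genes, and no subunit was called. The log2 differences were small, from -0.35 (PFDN4) to -0.11 (PFDN2), with a median of -0.22, and with the young control pair counted as 1 sample the median was -0.23, again with no call. Under heat shock all 6 were above 0, from 0.17 (PFDN4 and PFDN5) to 0.54 (PFDN6), with a median of 0.24. PFDN4 was at -0.09 without young heat shock replicate 2 and PFDN5 at -0.03 without young heat shock replicate 1, and limma-trend placed 5 of 6 above 0, so the count of 6 rested on single libraries. PFDN1, PFDN2, PFDN6 and VBP1 were higher without overlap, against 20.4% of all genes. No subunit passed the test under heat shock (edgeR adjusted p = 0.33 to 0.804), and PFDN2 and PFDN6 had an unadjusted p under 0.05. Over all genes edgeR called 0% higher and 0% lower in control, and 0% higher and 0.00886% lower (1 gene) under heat shock. DESeq2 called 0.811% and 0.332% in control and 0.564% and 0.892% under heat shock, and the replicate block 0.151% and 0.0886% and then 0.0709% and 0.0886%. No subunit was among them. The senescent control libraries enter this comparison and the heat response of senescent cells alike, so the lower control level and the larger heat response are not separate observations.

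RNA of the subunits was compared between the states in the same way. In control cells the log2 differences ran from -0.27 (PFDN4) to 0.18 (PFDN6) with a median of 0.05, and 3 of 6 were above 0. Under heat shock they ran from -0.33 (VBP1) to 0.18 (PFDN5) with a median of -0.19, and PFDN5 was the 1 subunit above 0. PFDN2 was higher in senescent controls without overlap, against 17.8% of all genes. Under heat shock PFDN5 was higher and PFDN1 and PFDN6 lower without overlap, against 21.7% and 21.3%. edgeR called 0.0304% of genes higher and 0.00759% lower in control and 0% and 0% under heat shock. The replicate block called 2.15% and 1.57% in control and 8.12% and 5.62% under heat shock, and DESeq2 0.653% and 0.44% and then 1.12% and 0.751%, none of these genes a subunit. The RNA medians turned or shrank with single libraries: -0.14 without senescent control replicate 1 and 0.15 without replicate 2 in control, and -0.36 to -0.07 under heat shock (without young heat shock replicate 2 and replicate 1).

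Footprints per RNA, which sets both assays against each other in 1 fit, gave no call between the states. In control cells the log2 differences were below 0 for all 6 subunits, with a median of -0.24 and an edgeR adjusted p of 1 for each; 0% of genes were called higher and 0.00779% lower. Leaving out senescent control RNA replicate 1 placed PFDN4 at 0.43 and VBP1 at 0.42. Under heat shock the median was 0.56, from 0.00 (PFDN5) to 0.78 (PFDN6), and 0% of genes were called in either direction. PFDN1, PFDN2 and PFDN6 had an unadjusted p under 0.05 there, and the edgeR adjusted p of the subunits was 0.755 to 1. PFDN5 fell on the other side of 0 under other scalings, and in DESeq2 (-0.03).

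The makeup of the family within each library gives a view that does not depend on scaling between libraries. PFDN5 supplied 47.4% to 50.3% of all prefoldin footprint counts in the 4 control libraries and 38.5% to 47% in the 4 heat-shocked ones. The heat-shocked libraries were all below the controls, by 8.25 percentage points on average within state (means 49.4% ± 1.33 and 41.1% ± 3.94, SD, n = 4). The shares of a library sum to the whole, so a lower share of PFDN5 and higher shares of other subunits are not separate observations. In CPM, PFDN5 footprints were lower after heat shock in young cells. In senescent cells they were higher, from 263 and 280 CPM to 287 and 327 CPM. The share of PFDN6 was 6.31% to 6.89% in controls and 8.53% to 10.6% after heat shock, 2.73 points higher, and PFDN2 was at 14.4% to 16.4% and at 14.5% to 20.9%. An exact permutation test, two-sided and within state, gave p = 0.0556 for PFDN5 and for PFDN6, the smallest p that its 36 arrangements allow; adjusted over the 12 shares tested it was 0.222. In RNA the share of PFDN5 was instead 49.4% to 60.4% in controls and 52.5% to 64.5% after heat shock, 4.25 points higher on average (exact permutation p = 0.222, adjusted 0.444). The RNA share of PFDN1 was 14.3% to 17.2% in controls and 11.2% to 14.1% after heat shock (-3.18 points, exact permutation p = 0.0556, adjusted 0.222). These shares were chosen after their values were seen. Leaving out each library in turn kept the PFDN5 difference between -10.4 and -6.12 points in footprints and between 2.02 and 6.48 points in RNA.

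**Figure D4:**
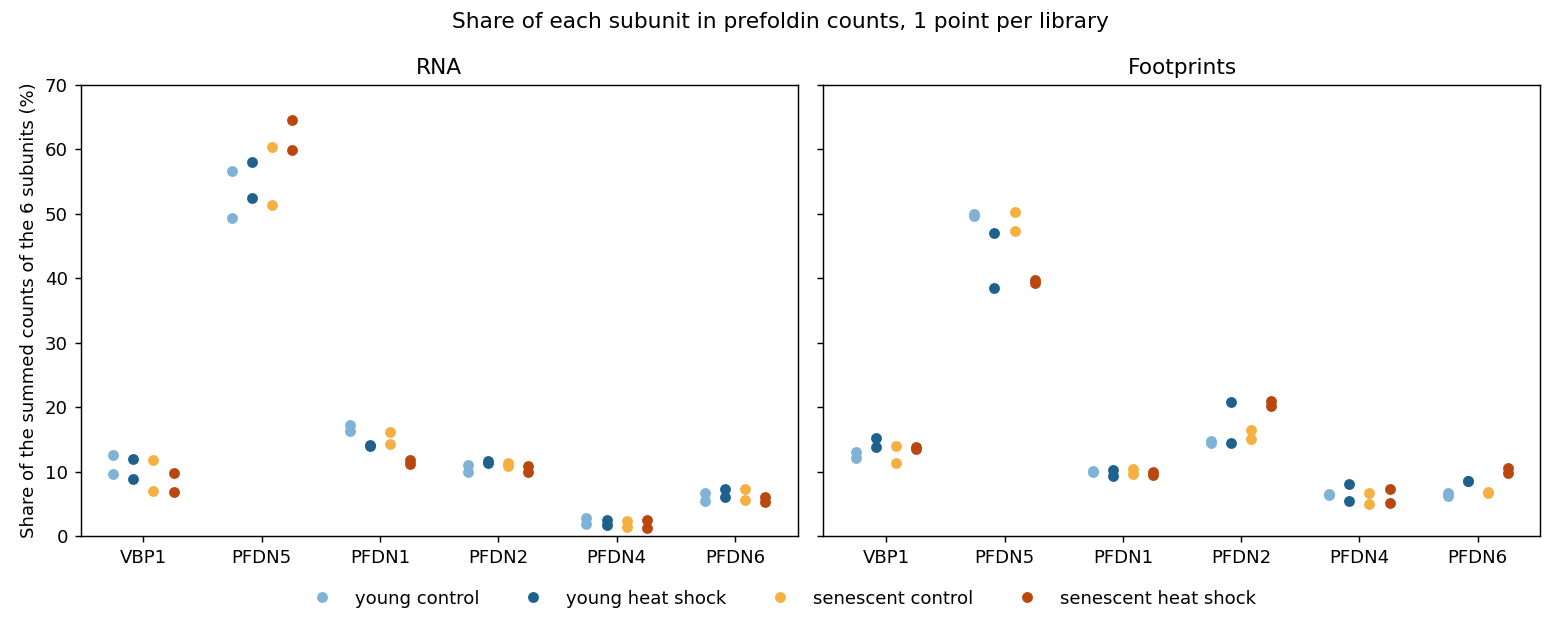
Percent of the summed counts of the 6 subunits that came from each subunit, 1 point per library, in RNA-seq (left) and Ribo-seq (right). In footprints the PFDN5 points of heat-shocked libraries (38.5% to 47%) lie below those of controls (47.4% to 50.3%), and the PFDN6 points lie above (8.53% to 10.6% against 6.31% to 6.89%). The shares of a library sum to the whole, so these are not separate changes.

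The start sites of these genes are shown as a description, because PFDN5 had the smallest and PFDN6 the largest footprint change in heat-shocked senescent cells. Heat shock factors and the translation machinery are known to act on short elements near starts. The part of such elements in the footprint changes was not tested. RefSeq promoter windows of GRCh38.p14, from 250 bases before to 50 bases from each start, were used for 4 of the 6 genes (5 windows). No window was available for PFDN2. VBP1 was left out by choice, so its start was not searched for the elements below. The deposited files name another build, hg19, so these positions are not those of the counts. Windows of 30 bases around the first listed start, with 15 bases before it, were chr12:53295527-53295556 (plus strand) for PFDN5, chr6:33289582-33289611 (plus) for PFDN6, chr5:140303087-140303116 (minus) for PFDN1 and chr20:54208072-54208101 (plus) for PFDN4. Capitals mark a run that opens with C at the start and continues with at least 4 letters that are C or T, the form of a terminal oligopyrimidine start.
PFDN5: tcgccgagagacttcCTCTTCgttaagtcg
PFDN6: cttgtttacttccgggtttattactactga
PFDN1: ttcagtccaactcccactgcgcaggcgctt
PFDN4: cccgccgcctgcggtagtccagtcccaaga
PFDN5 alone among these 4 genes had such a run, 6 letters long, and 4.07% of 35116 human windows had one. Terminal oligopyrimidine starts are known from genes of the translation machinery. The match is a description of the letters and not a mapped start in these cells.

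The 90 bases before the first PFDN6 start, at chr6:33289507-33289596 (plus strand of GRCh38.p14, RefSeq), are given because PFDN6 had the largest footprint change. Capitals mark the only match in the 300-base window to GAANNTTC or TTCNNGAA, neighbouring inverted units of the heat shock element bound by heat shock factors.
PFDN6: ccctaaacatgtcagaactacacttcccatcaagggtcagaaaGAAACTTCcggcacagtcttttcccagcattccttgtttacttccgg
The match begins at position -47 from that start, and 13.5% of the 35116 windows hold at least 1 match on either strand, the motif being its own reverse complement. No match was found in the windows of PFDN1, PFDN4 and PFDN5. PFDN6 RNA itself was not called in either state (log2 0.33 ± 0.24 in young and -0.08 ± 0.24 in senescent cells).

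For 3 subunits the exons overlap those of a gene on the other strand: CYSTM1 for PFDN1, NIT1 for PFDN2, and WDR46 and RGL2 for PFDN6, in GENCODE 29. The labels and files do not say whether counting used strand, and without it reads of overlapping exons cannot be told apart. In footprints of senescent cells on heat shock, RGL2, an activator of Ral GTPases, fell by 1.47 on the log2 scale (SE 0.31; edgeR adjusted p = 0.0269), from 10.8 and 10.6 CPM to 3.52 and 4.25 CPM. WDR46, which acts in ribosomal RNA processing, was at 97.7 and 86.7 CPM and then at 108 and 131 CPM, with a log2 difference of 0.37 ± 0.21 (edgeR adjusted p = 0.279). NIT1 differed by 0.46 ± 0.26 and CYSTM1 by 0.69 ± 0.33 (edgeR adjusted p = 0.275 and 0.203). The part of these genes in the PFDN6 and PFDN2 changes was not tested.

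TRiC receives the substrates of prefoldin. All 8 TRiC subunits had footprint changes above 0 on heat shock in young cells (median log2 0.60; none called, lowest edgeR adjusted p = 0.142) and in senescent cells (median 0.57; 1 called). The called subunit was CCT2, at 456 and 475 CPM and then 862 and 683 CPM in young cells, and at 556 and 411 CPM and then 898 and 832 CPM in senescent cells (log2 0.84 ± 0.21, edgeR adjusted p = 0.0414). Prefoldin had medians of 0.12 and 0.58 on the same scale. In the difference of responses 3 of 8 TRiC subunits were above 0 in footprints (median -0.05), beside 6 of 6 for prefoldin (median 0.52), and no gene of either list was called. In RNA the difference of responses was below 0 for 8 of 8 TRiC subunits (median -0.46) and for 4 of 6 prefoldin subunits (median -0.21). edgeR called none of them there, and it called 0% of all 13177 genes higher and 0% lower. No test set the 2 lists against each other.

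The prefoldin-like complex around URI1, which shares PFDN2 and PFDN6 with prefoldin, and its R2TP partners were listed as 8 genes. None was called on heat shock in RNA or footprints of either state. The most abundant in footprints, the AAA+ ATPase gene RUVBL2, had a log2 difference of 0.47 ± 0.31 in senescent cells (edgeR adjusted p = 0.347). The small prefoldin-like subunits UXT and PDRG1, picked after their values were seen, were at 53.7 and 56.6 CPM and then 78.3 and 86.4 CPM (UXT), and at 6.25 and 14.2 CPM and then 20.6 and 24.0 CPM (PDRG1). Both were higher in heat-shocked senescent cells without overlap, as 26.8% of all genes were, with log2 differences of 0.58 ± 0.19 and 1.11 ± 0.39 (edgeR adjusted p = 0.0862 and 0.105). In young cells their differences were 0.09 and 0.06. URI1, the scaffold of that complex and chosen likewise, was at -0.93 ± 0.42 in senescent cells (edgeR adjusted p = 0.177). Footprint medians of the list were 0.13 in young and 0.40 in senescent cells.

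Of the substrates and later steps, none of 13 actin and tubulin genes was called on heat shock in either assay. ACTB footprints, the most abundant of them, were at 16414 and 16149 CPM in senescent controls and at 19102 and 26094 CPM after heat shock (log2 0.47 ± 0.21, edgeR adjusted p = 0.176), and the list's medians were 0.18 in young and 0.36 in senescent cells. Among 6 tubulin folding cofactors, TBCC, which helps release assembled tubulin dimers, was the 1 called. It fell by 1.95 on the log2 scale in RNA of young cells (edgeR adjusted p = 0.0191) and by 1.73 in RNA of senescent cells (edgeR adjusted p = 0.0381). TBCC footprints fell by 1.24 in senescent cells, from 30.4 and 32.1 CPM to 10.7 and 15.9 CPM (edgeR adjusted p = 0.0354), and differed by -1.26 in young cells (edgeR adjusted p = 0.077). The phosducin-like TRiC cofactors (3 genes) had RNA differences below 0 in both states and no call in either assay; TXNDC9, the most abundant, was at 0.60 ± 0.22 in footprints of senescent cells (edgeR adjusted p = 0.117). MYC and VHL, which PFDN5 and VBP1 are known to bind, were not called on heat shock, with footprint differences in senescent cells of -0.27 ± 0.28 and -0.84 ± 0.38.

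**Figure D5:**
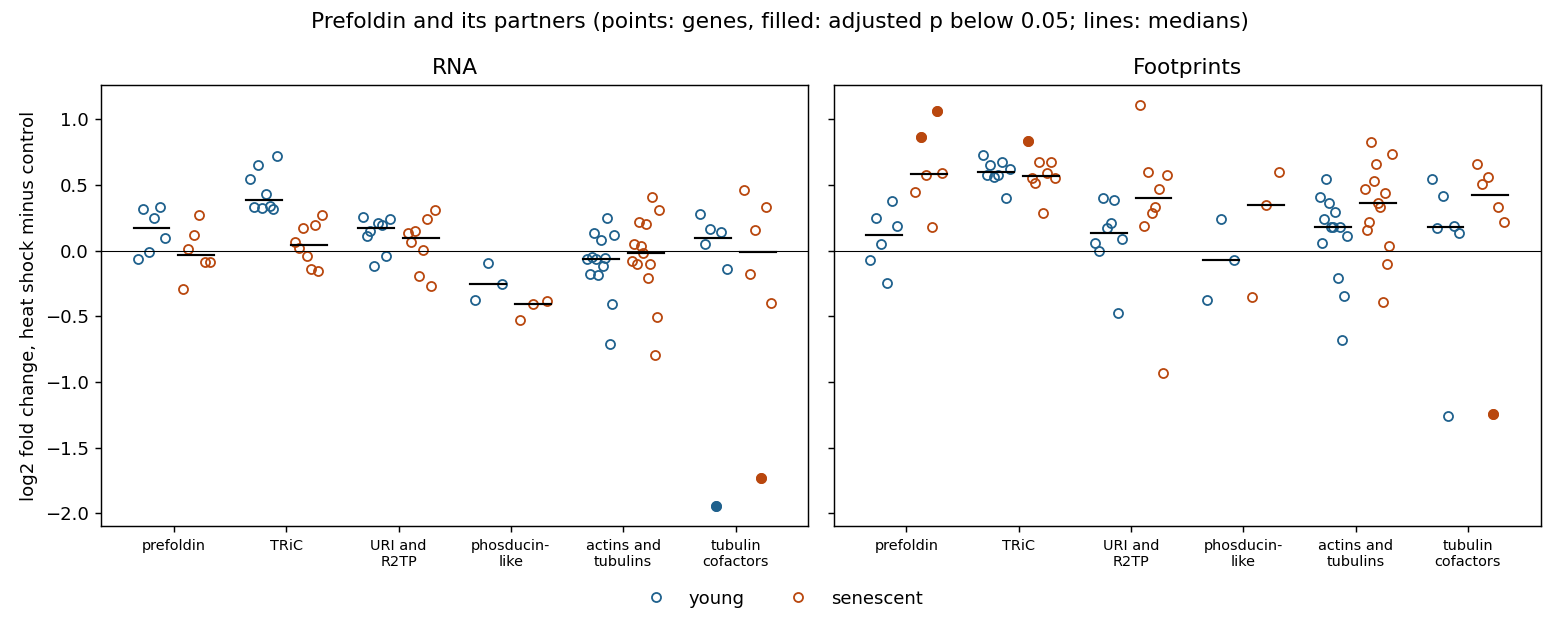
Log2 fold change on heat shock for each gene of the prefoldin, TRiC, URI and R2TP, phosducin-like, actin and tubulin, and tubulin cofactor lists, in RNA (left) and footprints (right), young and senescent; filled points have an edgeR adjusted p below 0.05 and lines are list medians. The prefoldin median in footprints is 0.12 in young and 0.58 in senescent cells, while that of TRiC is 0.60 and 0.57.

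Genes whose pattern was most like the mean prefoldin pattern were ranked by the root mean square difference of centred log2 CPM over all 16 libraries, among 7467 genes with at least 10 CPM on average. The 5 nearest were ATP5C1 (0.0697), SEPT2 (0.0791), BZW2 (0.0797), GLRX3 (0.0839) and STAU2 (0.0861). The subunits themselves, which make up that mean, ranked 38 (PFDN1), 118 (VBP1), 172 (PFDN6), 197 (PFDN2), 1105 (PFDN4) and 1348 (PFDN5). PFDN5 was thus the subunit farthest from the pattern of its family.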

How the data were processed

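RNA-seq and Ribo-seq of 16 libraries were deposited as RSEM expected counts per gene, which were whole numbers in the files, and as TPM, which RSEM scales by transcript length; both names are per the file headers. STAR, RSEM, Bowtie2 and hg19 appear in the submitters' processing notes; the role of each, the annotation and strand handling are not stated there. Expected counts (the authors' deposited values) were rounded, passed through filterByExpr, TMM-scaled and tested in edgeR 4.0.16 under R 4.3.3 (quasi-likelihood test, 1 mean per group; residual degrees of freedom were 4 within an assay and 8 in the joint fit). This tested 13177 genes in RNA, 11288 in footprints and 12831 in the joint fit for footprints per RNA. P values were adjusted over all genes within each of 15 comparisons, with a threshold of 0.05. Standard errors are the log2 change divided by the square root of F and are approximate. All 32 columns of values were used. The labels name no molecular identifiers, so intervals for counting error are not given.

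Alternatives were library size only, scaling by relative log expression, a replicate block, no filter, DESeq2 1.42.0, limma-trend (3.58.1) on log2(TPM + 1) with at least 1 TPM in at least 2 libraries, and each library left out. Chosen after seeing the data were a filter within each assay for footprints per RNA, the young control footprint pair as 1 sample, and the shares of PFDN5. A leave-one-out fit assumes that the lone library of a group varies like the others. Same-numbered libraries were checked for pairing. The replicate difference correlated across genes at 0.481 to 0.658 in 6 pairs of RNA groups and at -0.04 to 0.33 in footprints. The numbers thus pair the RNA libraries, whereas the weaker and mixed footprint values leave pairing there neither shown nor excluded. What a number marks is not given in the labels. The edgeR fit was also run on simulated counts with changes planted in young heat shock libraries only. The counts were drawn without a shared replicate effect, so that run does not bear on paired replicates or on the senescent calls. Named genes beyond the subunits were up to 3 called genes of a list, or its most abundant gene where none was called; URI1, UXT, PDRG1 and the genes whose exons overlap a subunit were named outside that rule. The subunits and lists were chosen with earlier results of these data known.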

Additional observations from a re-analysis of the deposited data

How the results depend on the processing

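The calls of PFDN6 and PFDN2 in footprints of heat-shocked senescent cells fell from 2 to 1 with library size only and with limma-trend on TPM, to 0 with the young control pair as 1 sample, and ranged from 0 to 2 with each library left out. Those calls stayed at 2 with DESeq2, the replicate block, no filter and relative log expression scaling. The median change of the 6 genes in those footprints was 0.31 with library size only and 0.27 with limma-trend, and 0.55 to 0.63 with a library left out. Other medians also moved. In RNA on heat shock, young: -0.11 with library size only, -0.0914 with limma-trend, 0.0407 to 0.302 with a library left out (lowest without young heat shock replicate 1, highest without replicate 2); senescent: -0.26 with library size only, -0.28 to 0.20 with a library left out (lowest without senescent control replicate 2, highest without replicate 1). In footprints of young cells on heat shock: -0.16 with library size only, -0.0832 with limma-trend, -0.0511 to 0.17 with a library left out. Difference of RNA responses (-0.21): -0.341 to -0.0572 with a library left out (without young heat shock replicate 2 and senescent control replicate 1). RNA, senescent against young: -0.143 to 0.148 in control and -0.361 to -0.0742 under heat shock. Difference of footprint responses: 0.41 with limma-trend. Footprints, senescent against young under heat shock: 0.0797 with limma-trend, 0.20 to 0.34 with a library left out. For footprints per RNA in senescent cells the replicate block and DESeq2 each called 2 subunits, leaving out a library 0 to 1, and the median was then 0.40 to 0.88; that of the difference of responses was 0.54 to 0.93. In young cells it was -0.167 to 0.108, and between the states -0.395 to -0.0509 in control and 0.406 to 0.682 under heat shock. The replicate block changed no other call of a subunit. No called value changed sign; of 1495 values uncalled throughout, 85 (5.69%) did. Limma-trend was not run for footprints per RNA. The cause of these shifts was not tested, apart from fewer samples where a library was left out. With 134 to 527 counts, PFDN4 and PFDN6 footprints are among the less precise values, and 2 libraries per group limit all of them.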
